A study of Mus musculus with 11 samples.

Results

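Mouse chromosome 8 carries genes of growth factor and phosphoinositide 3-kinase (PI3K) signalling, a block whose human counterpart holds FGFR1 and ZNF703, and several adhesion and tumour suppressor genes. Its copy number was followed in 11 mammary tumours. All probes that the array places on chromosome 8 were taken, 8152 of 170305 (4.79%), whatever their values. They run from base 3130823 to base 131734335 of mouse build mm9, a span of 129 Mb, with a median of 11145 bases between neighbouring starts. They fill 126 of the 2531 bins of 1 Mb on the array, with 17 to 101 probes per bin, and 65.5% of them lie in genes named by the array. These are 1055 gene names found on this chromosome alone, of which 441 have at least 3 probes.

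The tumours came from 11 Pik3ca H1047R mice of mixed FVBN/Bl6 strain, and their DNA was labelled with Cy5. The liver DNA of the same animal, from the same Pik3ca H1047R genotype, was labelled with Cy3 and hybridised to the same array. The labels give no age and no promoter or Cre line for the mutant allele, and wild-type animals were not analysed here. Every value is therefore a tumour read against its own liver, with 1 array per animal and 11 animals in 1 group.

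In comparative genomic hybridisation both DNAs compete for the same probe, so the log2 ratio of tumour over liver is above 0 where the tumour holds more copies. The ratio averages over all cells of the piece of tissue, and a gain in some cells cannot be told apart from a smaller change in all of them. A gain of 1 copy in every cell of a diploid sample would give 0.585 if the arrays read ratios without compression. The PI3K pathway passes signals from receptors at the membrane to growth and survival, and Pik3ca encodes its alpha catalytic subunit, in which H1047R is an activating change. In human breast cancer the FGFR1 and ZNF703 region is a known site of amplification, and the human genes CDH1, which encodes E-cadherin, and WWOX are known sites of loss.

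Each ratio was set to 0 at the median of its array. That median shifts with the balance of gains and losses elsewhere, so chromosome 8 was also read against the uncalled autosomes of the same array, those with under 5% of their probes in gain or loss calls. A segment of at least 10 probes was called gained or lost at an absolute mean of at least 0.2. The noise SD between neighbouring probes was 0.13 in tumour 8, 0.55 in tumour 9 and 0.51 in tumour 11. Spots too dim to stand well above background made up 0.0803% of tumour 6, the lowest, 8.14% of tumour 2 and 12.8% of tumour 9, the highest. Tumour 11 ran opposite to tumours 9, 4 and 5 over all autosomal probes (r = -0.65, -0.60 and -0.61). Tumours 4 and 9 ran together (r = 0.78), and these correlations are descriptions over 161017 probes that share 1 array design. The labels name Cy5 for every tumour, so the direction of tumour 11 was kept, and its ratios were also turned as an alternative.

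The probes beside the ends of 3 changes inside chromosome 8 are shown first, because those ends separate the stretches described below. Sequences are as the array file lists them, 5′ to 3′ in lower case with nothing in capitals, and the file gives no strand. The first pair straddles the end of the gain in tumour 3 and lies in Il15, at chr8:84902931-84902990 and chr8:84917882-84917941. The second pair straddles a downward step in tumour 2, at chr8:73319002-73319061 in the transcript ENSMUST00000037986 and at chr8:73330387-73330446 in no named gene. The third pair straddles the start of a small loss within Wwox in tumour 1, at chr8:117574788-117574847 and chr8:117587710-117587769.
last probe in the gain of tumour 3: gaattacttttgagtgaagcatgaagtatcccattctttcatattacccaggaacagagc
first probe after the gain of tumour 3: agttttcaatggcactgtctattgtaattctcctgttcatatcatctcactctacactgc
last probe before the step in tumour 2: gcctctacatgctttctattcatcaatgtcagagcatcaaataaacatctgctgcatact
first probe after the step in tumour 2: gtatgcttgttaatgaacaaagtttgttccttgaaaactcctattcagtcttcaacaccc
last probe before the loss in tumour 1: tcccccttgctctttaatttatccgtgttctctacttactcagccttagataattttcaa
first probe in the loss in tumour 1: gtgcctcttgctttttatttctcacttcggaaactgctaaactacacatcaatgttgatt

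At the first pair, tumour 3 read 0.41 at the last gained probe and 0.16 at the next. At the second pair, tumour 2 read 0.38 before the step and 0.11 after it. At the third pair, tumour 1 read 0.0078 before the loss and -0.83 at its first probe. Single probes are noisy, and at the second pair tumour 9 read 0.76 and -0.99 without any segment end there.

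At least 50% of the probes of chromosome 8 were in gain calls in 3 of the 11 tumours, with 99.7% of the probes in tumour 2, 60.3% in tumour 3 and 100% in tumour 7. Over the whole array, 19.9% of probes were in gain calls in tumour 2, 11% in tumour 3 and 5.59% in tumour 7, a comparison that the choice of these tumours fixes. The mean over chromosome 8 was 0.30 in tumour 2, 0.18 in tumour 3 and 0.31 in tumour 7. The other 8 tumours lay between -0.10 in tumour 4 and 0.040 in tumour 1, and since calls rest on these ratios the gap to the 3 gained tumours is a description. As ratios, tumour over liver was 1.23 in tumour 2, 1.13 in tumour 3 and 1.24 in tumour 7. All 3 log2 means lie below what 1 added copy in every cell would give.

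Relative to the uncalled autosomes of the same array, the order of tumours 2 and 7 turned. Chromosome 8 then read 0.34 in tumour 2, 0.20 in tumour 3 and 0.25 in tumour 7, because the uncalled autosomes lay at -0.049, -0.024 and 0.060. The other 8 tumours ran from -0.098 in tumour 4 to 0.028 in tumour 11. None of the uncalled autosomes reached chromosome 8 in the 3 gained tumours, out of 9 in tumour 2, 13 in tumour 3 and 11 in tumour 7. The gained tumours and the uncalled autosomes were both picked by calls, which largely fixes this outcome. In tumour 7 the uncalled autosomes themselves spread from -0.092 on chromosome 1 to 0.16 on chromosome 15. The mode of the array as zero gave 0.34 in tumour 2, 0.20 in tumour 3 and 0.22 in tumour 7.

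Over all 11 tumours the mean of chromosome 8 was 0.057 ± 0.14 (SD, n = 11), above the array median in 6 of 11. It did not differ from 0 beyond the spread between tumours by a two-sided exact permutation test that flips signs (p = 0.235, adjusted p = 0.448 over 20 chromosomes). Among the 20 chromosomes, 3 (15%) passed that test, none of them chromosome 8. With the mode of the array as zero the mean was 0.038, above 0 in 4 of 11 (exact permutation, adjusted p = 0.549). Over the uncalled autosomes the mean was 0.053 ± 0.14 (SD, n = 11), above 0 in 4 of 11, with exact permutation p = 0.259 and adjusted p = 0.497. With tumour 11 turned, the mean was 0.053 and above 0 in 5 of 11 (exact permutation, adjusted p = 0.483), and over the uncalled autosomes 0.048 and above 0 in 3 of 11. The plot of chromosome 8 against the other autosomes shows these values by tumour.

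**Figure D1:**
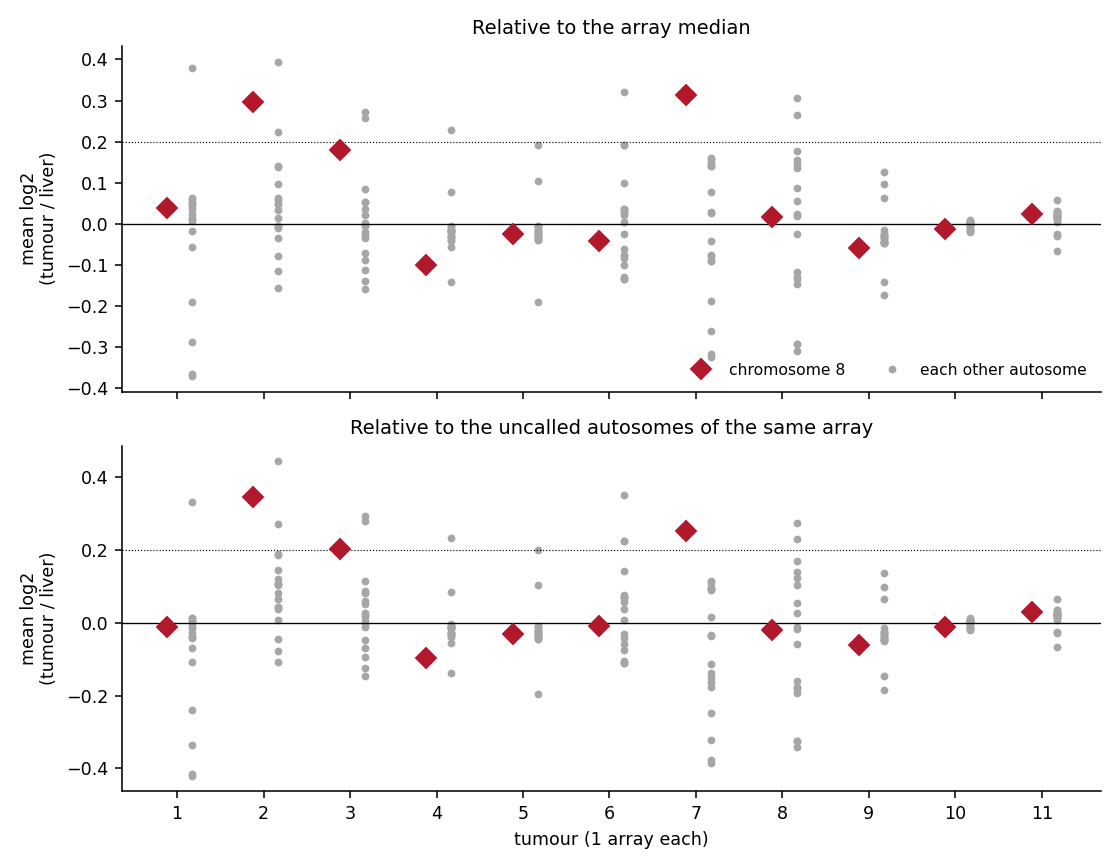
Mean log2 ratio of tumour over liver on chromosome 8 (red diamonds) and on each other autosome (grey points) in tumours 1 to 11, relative to the array median (upper panel) and to the uncalled autosomes (lower panel). The dotted line marks 0.2. Tumours 2, 3 and 7 lie highest in both panels, at 0.30, 0.18 and 0.31 above and at 0.34, 0.20 and 0.25 below.

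The gained tumours lay on 2 of the 3 slides, tumours 2 and 3 on slide 1 and tumour 7 on slide 2. The mean over slide 1 (3 tumours) was 0.16, over slide 2 (4 tumours) 0.044 and over slide 3 (4 tumours) -0.0096. The part of the slide in these values was not tested. The noise SD was 0.16 in tumour 2, 0.15 in tumour 3 and 0.22 in tumour 7.

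Chromosomes 3 and 15 were taken for comparison as the 2 chromosomes most often gained. That choice favours a lower reading of chromosome 8, and the p-values below do not allow for it. Chromosome 8 was lower than chromosome 3 in 9 of 11 tumours. Chromosome 8 averaged 0.057 and chromosome 3 averaged 0.19, a mean difference of -0.13 ± 0.15 (SD, n = 11; two-sided exact permutation of signs, p = 0.0205, adjusted p = 0.0410 over 2 differences). The call is a narrow one. It was lost when tumour 1, 2, 3, 4, 5, 6, 8 or 9 was left out (adjusted p from 0.0586 to 0.0820) and with medians over probes (adjusted p = 0.0527). Chromosome 8 lay below chromosome 15 in 8 of 11 tumours, with means of 0.057 and 0.14 and a difference of -0.087 ± 0.15 (SD, n = 11; exact permutation p = 0.0889, adjusted p = 0.0889). Without tumour 7 that difference was -0.11 with an adjusted p of 0.0215. With tumour 11 turned, chromosome 8 lay above chromosome 3 in 1 of 11 (-0.14, adjusted p = 0.0254) and above chromosome 15 in 2 of 11 (-0.090, adjusted p = 0.0771), both by exact permutation.

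Within the gained tumours the 3 chromosomes ranked differently. In tumour 2 chromosome 8 read 0.30, with chromosome 3 at 0.39 and chromosome 15 at 0.22. In tumour 3 chromosome 8 read 0.18, with chromosome 3 at 0.26 and chromosome 15 at 0.27. In tumour 7 chromosome 8 ranked first among the 19 autosomes at 0.31, and chromosomes 3 and 15 both read 0.16. Among the 19 autosomes, chromosome 8 ranked 2 in tumour 2 and 3 in tumour 3. Tumours 6 and 8, where chromosome 15 read 0.32 and 0.31, had chromosome 8 at -0.041 and 0.015.

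**Figure D2:**
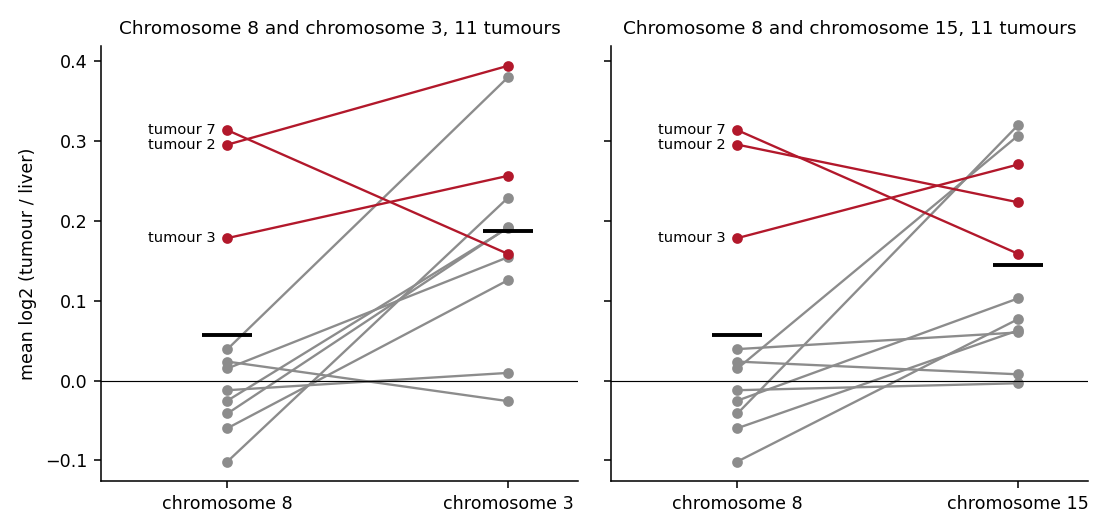
Mean log2 ratio of tumour over liver on chromosome 8 joined by tumour to that on chromosome 3 (left) and chromosome 15 (right), with black bars at the means over 11 tumours. Red lines are tumours 2, 3 and 7. Chromosome 8 averages 0.057, below 0.19 on chromosome 3 and 0.14 on chromosome 15, and only tumour 7 stands clearly higher on chromosome 8 than on both, with tumour 11 0.050 and 0.016 higher.

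The 3 gains differed along the chromosome. Tumour 7 was gained evenly, in 1 segment of 8152 probes at 0.31, and it read 0.31 on the distal side of the midpoint and 0.32 on the proximal side. Tumour 2 was gained over nearly all its length at different heights, and with the normexp background 53.3% of its probes were in gain calls, with 0.17 over the stretch from 73330387 to 122471602. Tumour 3 was called gained over the first 82 Mb only. The stretch gained in all 3 covers 3130823 to 84902990, holds 4915 probes (60.3%) and includes 64 bins that reach 0.2 in each of the 3.

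Tumour 2 was split by the segmentation at 5 points. It read 0.34 up to base 9678964 in Fam155a, 0.42 from there to 18948825 between Xkr5, a gene of the XK-related family, and BC141618, and 0.36 up to 73319061. A step down followed, between ENSMUST00000037986 and Il12rb1, which encodes a subunit of the interleukin-12 receptor. Beyond it tumour 2 read 0.21 up to 122471602 in Usp10, a deubiquitinase gene, and then 0.26 up to 131542049 in Ccdc7. The last 15 probes read 0.0040, near the array median. Over 50 probes on each side, this step was -0.23 in tumour 2, and the other 10 tumours ranged from -0.014 to 0.050 at the same place. That end was found in the values of tumour 2 and picked as its largest step down between long segments, which favours this gap. Measured likewise, the steps of tumour 2 at 9678964 and 18948825 were 0.084 and -0.12. The other tumours ran from -0.028 to 0.050 and from -0.067 to 0.090 there. At 122471602 tumour 2 stepped by 0.12, inside the others' range of -0.20 to 0.16. At 131542049, over 15 probes per side, it stepped by -0.24, with -0.16 to 0.43 in the others.

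Tumour 3 read 0.23 over 4918 probes up to 84902990, 0.13 over the next 966 probes up to 98430858 and 0.095 over the last 2266. The first end lies within Il15, which encodes interleukin-15, a cytokine for natural killer and T cells. The second lies between Got2, a mitochondrial aminotransferase gene, and AK134720. Over 50 probes on each side, the step at Il15 was -0.12 in tumour 3. Tumour 9 read -0.11 at the same place and tumour 11 read 0.13, both arrays with noise SDs above 0.5. At the second end the step was -0.089 in tumour 3, -0.092 in tumour 5 and -0.086 in tumour 8. The remaining tumours ran from -0.051 to 0.031 there. The distal stretches of tumour 3 stayed above its uncalled autosomes, at -0.024, but below the height of a call. Where the called gain ended in tumour 3, tumour 2 was already past its own step and at 0.21.

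The distal minus proximal difference, split at base 67432579, was -0.14 in tumour 2, -0.086 in tumour 3 and -0.0023 in tumour 7. Tumour 1, with only short calls, read -0.059. Tumour 4 read 0.11, the highest, and the other 6 lay between -0.025 and 0.018. Over the 11 tumours the difference was -0.012 ± 0.066 (SD, n = 11), above 0 in 6 of 11, with a two-sided exact permutation p of 0.570 and an adjusted p of 0.788 over 20 chromosomes. GC content was 36.9% over the distal probes and 36.7% over the proximal ones. The distal side holds 672 gene names and the proximal side 386. A fit on GC content left the difference at -0.14 in tumour 2 and -0.084 in tumour 3. Across the 126 bins the ratio correlated with GC at -0.15 in tumour 2, -0.34 in tumour 3 and 0.27 in tumour 7, given as a description since the bins share an array.

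Along the bins, tumours 2 and 3 followed each other (r = 0.72 over 126 bins), while tumour 7 followed neither (r = 0.16 with tumour 2 and 0.021 with tumour 3). Tumour 1, with no gain of the chromosome and on another slide, correlated with tumour 3 at 0.74 and with tumour 2 at 0.58, and tumour 10 with tumour 3 at 0.54. These are descriptions of bins on shared probes, and tumours 2 and 3 also share a slide. The bin from 56000001 to 57000000 held the highest lowest value over the 3, with 0.40 in tumour 2, 0.29 in tumour 3 and 0.42 in tumour 7. The bin from 111000001 to 112000000 held the lowest, with 0.21 in tumour 2, 0.033 in tumour 3 and 0.39 in tumour 7. The profile of the gained tumours shows the flat gain, the 2 stepped ones and their distance from the uncalled autosomes.

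**Figure D3:**
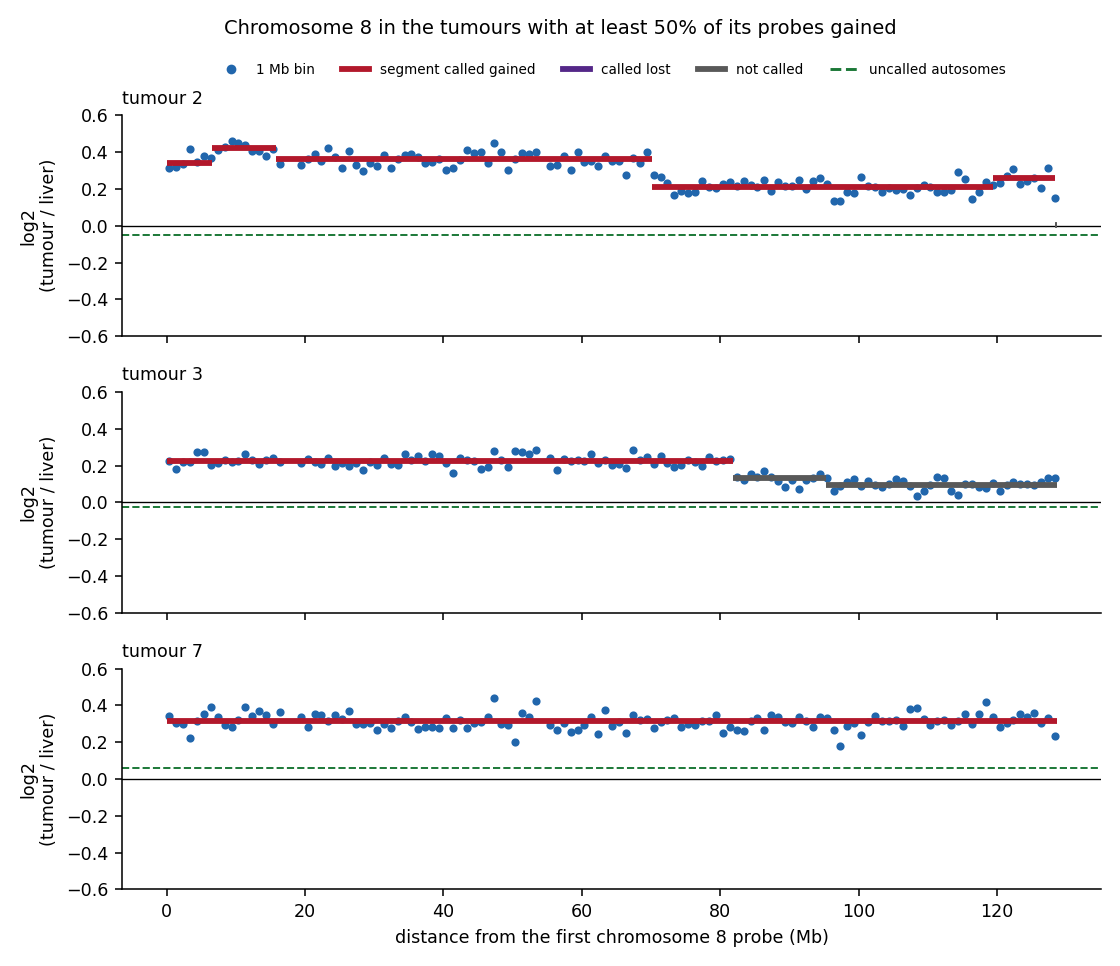
Log2 ratio of tumour over liver along chromosome 8 in tumours 2, 3 and 7, against distance from the first probe in Mb. Points are 1 Mb bins, thick lines are segments (red for called gained, grey for not called) and the dashed line is the median of the uncalled autosomes. Tumour 7 is level at 0.31, tumour 2 steps down to 0.21 and tumour 3 steps down to 0.13 and 0.095.

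In the other 8 tumours chromosome 8 carried few calls. Tumours 5, 6, 8, 9 and 10 had none, and their bin means ranged from -0.33 to 0.23 with both limits in tumour 9. Tumour 4 had 22.2% of its chromosome 8 probes in loss calls, against 2.12% over the whole array. The main loss covers 23017095 to 49286263 at -0.24 over 1675 probes, starting between Defb9, a defensin gene, and AK042760 and ending between Dctd, a deaminase gene of nucleotide metabolism, and Odz3. Tumour 9, on the same slide, had a segment with the same 2 ends at -0.15, which was not called. Over 50 probes at the proximal end, the step was -0.20 in tumour 4, -0.25 in tumour 9, -0.12 in tumour 5 and 0.14 in tumour 11. At the distal end it was 0.17 in tumour 4, 0.22 in tumour 9, 0.15 in tumour 7 and -0.25 in tumour 11. The bins of tumours 4 and 9 correlated at 0.70 and those of tumours 9 and 11 at -0.70, and what the 3 arrays share was not tested. With the mode of the array as zero, 20.5% of chromosome 8 was in loss calls in tumour 9. With the normexp background the same stretch read -0.23 in tumour 4 and -0.056 in tumour 9.

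Tumour 4 had 2 smaller losses, of 98 probes at -0.235 from Ddx19b to Adat1 and of 37 probes at -0.26 from Itgb1, an integrin gene, to the end. With the normexp background these 2 stretches averaged -0.201 and -0.122, and without dim spots -0.194 and -0.233. The share of chromosome 8 in loss calls in tumour 4 was then 14.1% with the normexp background. Tumour 11 had its only call on the chromosome over the last 31 probes, at 0.52 in Ccdc7 and beyond, against 0.435% of its probes in gain calls array-wide. With tumour 11 turned this stretch would read as a loss. The same 31 probes read -0.27 in tumours 4 and 9, 0.13 in tumour 6 and 0.11 in tumour 2. With dim spots left out or with the normexp background no segment was called there, and the same probes averaged 0.42 and 0.36.

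Tumour 1 carried 3 short changes on an otherwise uncalled chromosome, with 0.638% of its chromosome 8 probes in gain and 0.417% in loss calls. Array-wide, 5.77% of its probes were in gain and 19.2% in loss calls, so chromosome 8 lay below both shares. A loss of 22 probes at -0.34 covered 81630825 to 81813163, from Zfp827, a zinc finger gene, to Mmaa, a gene of vitamin B12 metabolism. A gain of 52 probes at 0.35 covered 113144922 to 113687763, from Vac14, which encodes a scaffold for phosphoinositide synthesis, to Glg1, a Golgi protein gene. In the other 10 tumours that stretch lay lowest in tumour 4 at -0.11 and highest in tumour 7 at 0.30, with 0.23 in tumour 2 and 0.15 in tumour 3.

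The third change of tumour 1 lies within Wwox, whose human counterpart spans a fragile site and encodes a WW domain oxidoreductase. It covers 117587710 to 117703520, 12 of the 90 Wwox probes, at -0.43 ± 0.18 (SD over probes), ranging from -0.83 to -0.15. The other 78 Wwox probes of tumour 1 read -0.050 ± 0.16 (SD over probes). The 12 probes read 0.24 in tumour 2 and 0.33 in tumour 7, near the segments that hold them, and 0.010 in tumour 3. The lowest value outside tumour 1 was -0.25 in tumour 11, followed by -0.18 in tumour 6 and -0.11 in tumour 10. Tumours 6 and 10 share slide 3 with tumour 1. In tumours 4, 5, 8 and 9 the 12 probes read from 0.029 to 0.25. Over all 90 Wwox probes, tumours 1, 6 and 10 read -0.10, -0.13 and -0.10, and the others from -0.048 to 0.32. The profiles of tumours 1, 4, 9 and 11 show these changes.

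**Figure D4:**
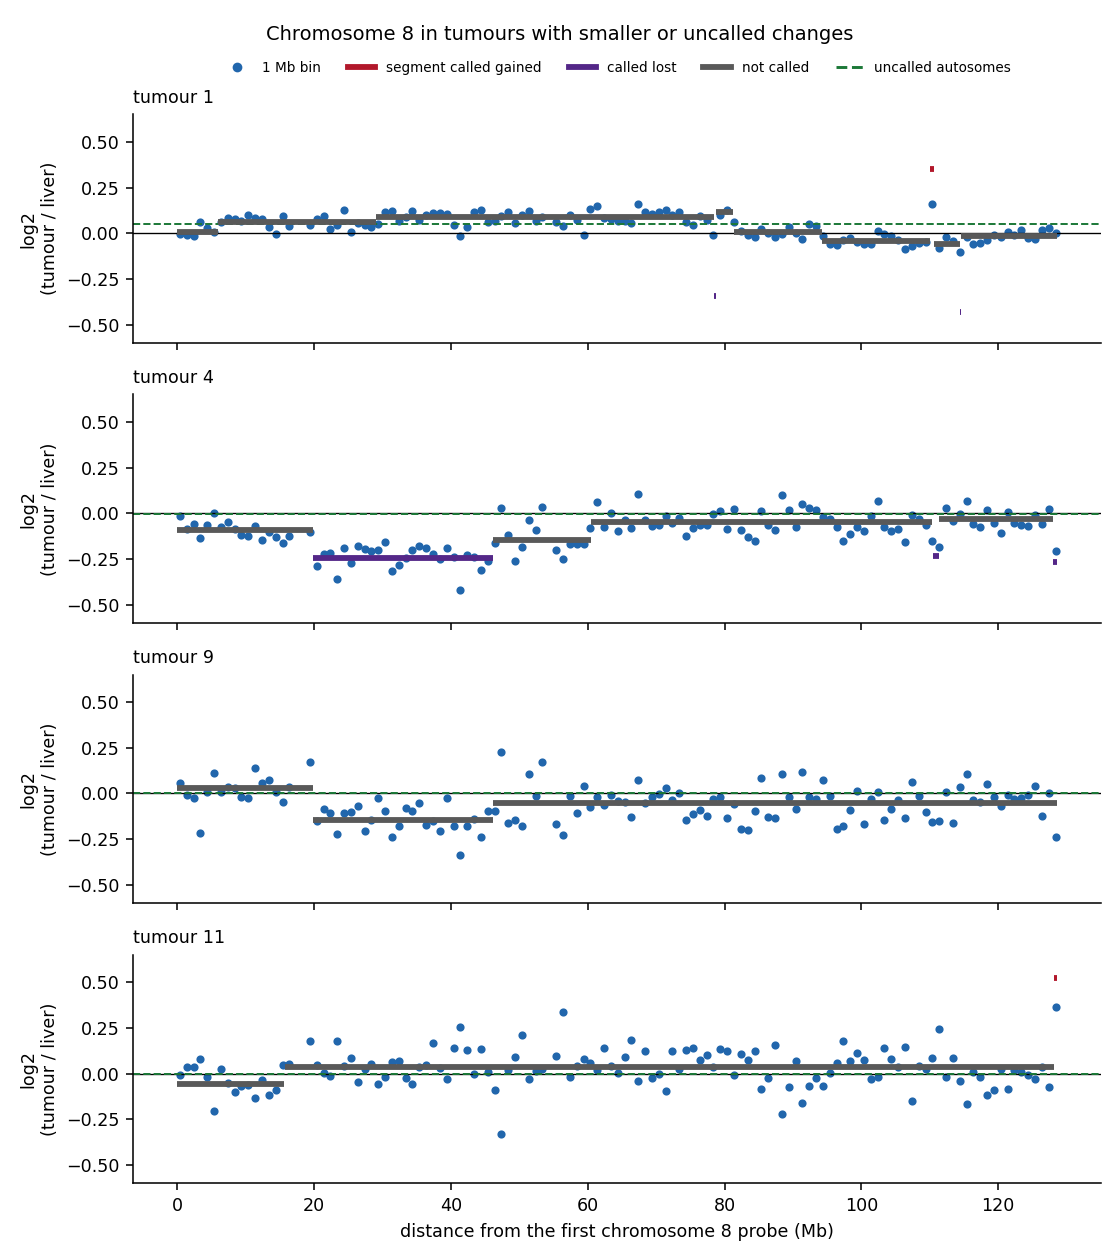
Log2 ratio of tumour over liver along chromosome 8 in tumours 1, 4, 9 and 11, against distance from the first probe in Mb, with 1 Mb bins as points, segments as thick lines (red called gained, purple called lost, grey not called) and the uncalled autosomes as a dashed line. Tumours 4 and 9 have segments with the same ends at -0.24 and -0.15, and tumour 11 ends in a short gain at 0.52.

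Few single bins or genes of chromosome 8 differed from the array median over all 11 tumours. In limma with an intercept, 1 of 126 bins was higher at an adjusted p under 0.05 and a mean of at least 0.1, against 9.96% of all bins on the array. None of the 126 was lower, against 3.48% array-wide, and 16 of them (12.7%) had an unadjusted p under 0.05, all higher, against 24.8% of all bins. The called bin, 56000001 to 57000000, holds probes in Gpm6a, which encodes a neuronal membrane glycoprotein, and averaged 0.14 ± 0.16 (SD, n = 11; limma adjusted p = 0.0295). It read 0.40, 0.29 and 0.42 in tumours 2, 3 and 7, and from -0.0038 to 0.17 in the other 8. This bin was named after its values were seen. Its call was lost without tumour 2, 3, 7 or 9 and with the mode or the uncalled autosomes as zero.

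Among the 441 genes with at least 3 probes, 6 were higher in limma, against 4.59% array-wide, and none was lower, against 2.3%. The share on chromosome 8 is below the array's. At an unadjusted p under 0.05 there were 67 (15.2%), of which 66 were higher, against 23.0% of all genes tested. The count moved with the setting. It was 44 without tumour 11, 58 with tumour 11 turned (57 higher and 1 lower) and 30 with slide as a random block, and 1 to 4 with any other single tumour left out. With the uncalled autosomes as zero it was 2, and with the mode as zero 1.

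Among the 441 genes with at least 3 probes, the highest mean belonged to Sin3b, which encodes a transcriptional corepressor, at 0.23 ± 0.12 (SD, n = 11; limma adjusted p = 0.0153). It was above 0 in 11 of 11 tumours, lowest in tumour 11 at 0.010 and highest in tumour 7 at 0.49, on 3 probes. Its value was not highest in all gained tumours, since tumour 2 read 0.25 and tumour 9 read 0.27. AK090359 and Ubxn8 followed with means of 0.22 and 0.20, and neither passed (limma adjusted p = 0.0576 and 0.0871). The other called genes, listed after their values were seen, are Slc18a1, a vesicular monoamine transporter gene, Atp6v1b2, a subunit of the vacuolar proton pump, ENSMUST00000098652, Anapc10, a subunit of the anaphase-promoting complex, and Csnk2a2, a catalytic subunit of casein kinase 2. Their means ran from 0.13 for ENSMUST00000098652 to 0.19 for Slc18a1 and Atp6v1b2. Of the same genes, the lowest 3 were Gfod2 at -0.15, AK135135 at -0.14 and Purg at -0.12, none of which passed (limma adjusted p of 0.354, 0.216 and 0.547). Their lowest values were -0.91 for Gfod2 in tumour 9, -0.78 for AK135135 in tumour 11 and -0.89 for Purg in tumour 4.

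Gene by gene, most of the chromosome moved with its tumour. In tumour 2, 1037 of 1055 genes lay above the uncalled autosomes, in tumour 3 995 and in tumour 7 991. At or above 0.2 were 755 genes in tumour 2, 484 in tumour 3 and 851 in tumour 7, or 71.6%, 45.9% and 80.7% of the chromosome, where the shares over all 20709 genes were 23.0%, 13.9% and 21.0%. The median over all 1055 genes was 0.29, 0.18 and 0.32 in these tumours. In tumour 10, with no call, 447 of 1055 lay above the uncalled autosomes and 42 reached 0.2.

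Of 15 listed genes of growth factor and PI3K signalling, 13 had a probe, and all 13 lay above the uncalled autosomes in tumours 2 and 3 and 12 in tumour 7. Over the whole chromosome 1037, 995 and 991 of 1055 genes did in tumours 2, 3 and 7. None of the 8 with at least 3 probes passed limma in either direction, and 0 had an unadjusted p under 0.05. Beside this list and those below, 15.2% of tested chromosome 8 genes and 23.0% of all genes tested had such a p. The list's median over 11 tumours was 0.038, with 0.058 for all chromosome 8 genes and -0.012 for all genes. Its medians were 0.38 in tumour 2, 0.25 in tumour 3 and 0.35 in tumour 7. Eif4ebp1 is the member below them in tumour 7.

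Receptors and their ligands came first in that list. Insr, the insulin receptor gene near the proximal end, read 0.38 in tumour 2, 0.22 in tumour 3 and 0.37 in tumour 7 on 14 probes, and from -0.16 to 0.068 in the other 8. Fgfr1, a fibroblast growth factor receptor gene, read 0.49, 0.22 and 0.44 in tumours 2, 3 and 7 and from -0.29 to 0.20 in the others, on 4 probes. Nrg1, which encodes the ERBB receptor ligand neuregulin-1, read 0.58, 0.35 and 0.37, and from -0.40 in tumour 11 to 0.22 in tumour 9 otherwise. Gas6, a ligand of TAM receptors and the highest of the list by its mean of 0.18, read 0.64, 0.28 and 0.49 on 2 probes. In tumour 1 it read 0.32.

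Among the adaptors and enzymes below the receptors, genes of 1 or 2 probes were uneven. Irs2, an insulin receptor substrate gene, read 0.52 in tumour 2, 0.26 in tumour 3 and 0.12 in tumour 7 on 1 probe, so tumour 7 was below tumour 10 at 0.14. Pik3r2, which encodes a regulatory subunit of PI3K, read 0.33, 0.067 and 0.38 in tumours 2, 3 and 7, and 0.67 in tumour 11, on 1 probe. Inpp4b, which encodes a phosphatase that acts on PI3K products, read 0.26, 0.25 and 0.29 on 43 probes, and at most 0.060 in the other 8. The gained tumours were chosen by segments that hold Inpp4b, and its mean over 11 was 0.060 (limma adjusted p = 0.448). Eif4ebp1, the lowest of the list with a mean of -0.22, encodes a repressor of translation under mTOR. Its 2 probes averaged 0.76 in tumour 2, 0.13 in tumour 3 and -0.096 in tumour 7, and -1.15 in tumour 9. They lay far apart in tumour 2 (SD over probes 1.09).

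The block orthologous to the human FGFR1 and ZNF703 region had 29 of 33 listed genes with a probe, of which 14 were tested with limma and none passed, with 1 at an unadjusted p under 0.05. Zfp703, Got1l1, Ppapdc1b and Ido1 had no probe by name. Its median was 0.42 in tumour 2, 0.23 in tumour 3 and 0.26 in tumour 7, and 0.030 over all 11. All 29 lie inside the main loss of tumour 4, where the median was -0.32, and the median was -0.27 in tumour 9 and 0.12 in tumour 11. Fewer of its genes reached 0.2 in tumour 3, 18 of 29, than in tumour 2, where 28 did, and 22 did in tumour 7. Over all chromosome 8 genes the shares were 45.9% in tumour 3, 71.6% in tumour 2 and 80.7% in tumour 7. Over all genes of the array they were 13.9%, 23.0% and 21.0%. Tumour 3 was thus lowest over the whole chromosome as well. Ash2l, a histone methyltransferase subunit and the highest of the block with a mean of 0.19, read 0.48, 0.33 and 0.57 in tumours 2, 3 and 7 (limma adjusted p = 0.0647). Tm2d2 followed at a mean of 0.16 on 1 probe. Lsm1, an mRNA decay gene of 2 probes, read 0.37 in tumour 2 and 0.0067 in tumour 7, and 1.05 in tumour 11. Bag4, an antiapoptotic chaperone gene, held the highest value of the block in a gained tumour, 0.92 in tumour 2, and read 0.11 in tumour 3. It has 2 probes, which lay far apart in tumour 2 (SD over probes 0.905). The segment that covers the block in each gained tumour extends beyond it on both sides.

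Of 24 tumour suppressor and adhesion genes, all had a probe, 20 were tested with limma and none passed, with 1 at an unadjusted p under 0.05. All 24 lay above the uncalled autosomes in tumours 2, 3 and 7, with medians of 0.30, 0.18 and 0.31. Over the whole chromosome 1037, 995 and 991 of 1055 genes did, with medians of 0.29, 0.18 and 0.32. The list's median over 11 tumours was 0.044. The main loss of tumour 4 holds members of this list, among them Tusc3, Fat1 and Dlc1, named for their position, which read -0.28, -0.23 and -0.14 in tumour 4. The Wwox loss of tumour 1 covers a part of that gene. Cdh1, which encodes E-cadherin, read 0.12 in tumour 2, 0.021 in tumour 3 and 0.28 in tumour 7. It lies in the distal stretch where tumours 2 and 3 were lower. Mcph1, a genome stability gene in the proximal part, read 0.42, 0.28 and 0.31 on 21 probes, and at most 0.11 in the other 8. Lzts1, the highest of the list at a mean of 0.11, has 1 probe and read 0.38 in tumour 1. Ing1 and Fanca were lowest at means of -0.042 and -0.023.

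Of 17 growth control and transcription genes, 11 had a probe, 7 were tested with limma and none passed, with 2 at an unadjusted p under 0.05. Their medians were 0.34, 0.28 and 0.31 in tumours 2, 3 and 7. Irf8, an interferon regulatory factor gene of 1 probe, had the highest mean at 0.30 and was above 0 in all 11 tumours, with 0.71 in tumour 9. Crtc1, a CREB coactivator gene, averaged 0.17 on 7 probes (limma adjusted p = 0.0938). Prkaca, which encodes a catalytic subunit of protein kinase A, was lowest at -0.034.

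Of the 6 long genes of fragile sites, Csmd1, Sgcz, Cdh13 and Wwox have from 90 to 165 probes each. All 6 had at least 4 probes, and none passed limma, with 0 at an unadjusted p under 0.05. All 6 reached 0.2 in tumours 2 and 7 while 2 did in tumour 3. Over all chromosome 8 genes 71.6% did in tumour 2, 80.7% in tumour 7 and 45.9% in tumour 3. Csmd1, in the proximal part with 165 probes, read 0.39 in tumour 2, 0.21 in tumour 3 and 0.36 in tumour 7. Cdh13, which encodes T-cadherin, in the distal part with 103 probes, read 0.23, 0.074 and 0.42. From the proximal to the distal gene, tumours 2 and 3 were lower at Cdh13 and tumour 7 was higher.

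Families that vary in copy number between mouse strains, the defensin and carboxylesterase genes, had 13 names with a probe, and 3 were tested with limma with none passing and 1 at an unadjusted p under 0.05. They read a median of 0.28, 0.17 and 0.36 in tumours 2, 3 and 7. The lowest mean was -0.091 for Ces8 and the highest 0.25 for Defb5, with 2 probes and 1 probe. Tumour and liver of 1 animal share their inherited copy number, so the ratio does not read strain differences. The plot of list genes shows their spread around the chromosome's median.

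**Figure D5:**
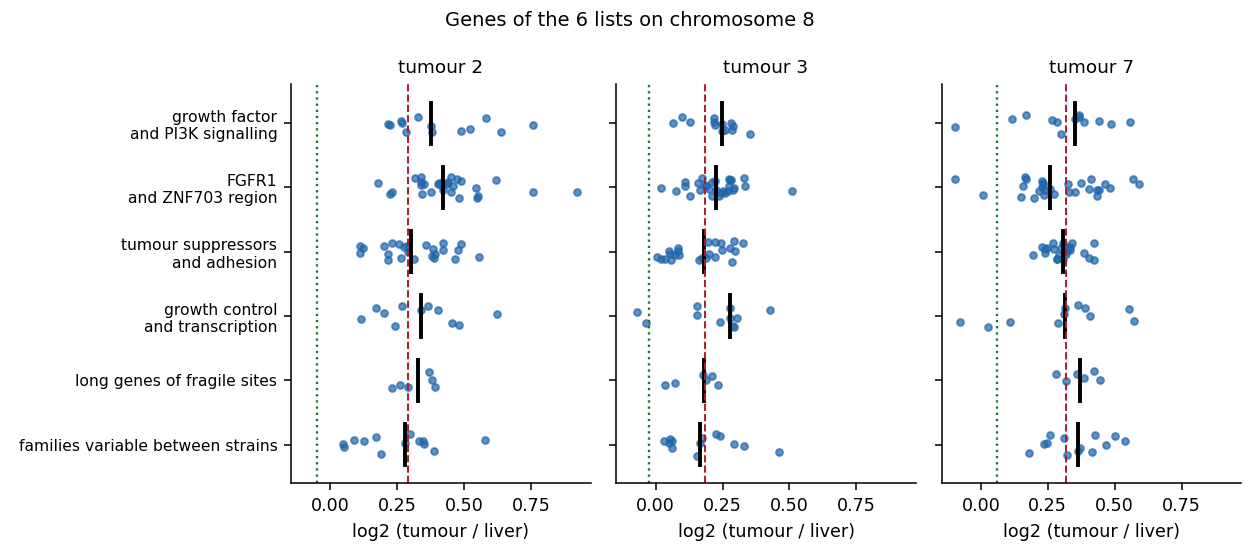
Log2 ratio of tumour over liver of each list gene on chromosome 8 (points) by list (rows) in tumours 2, 3 and 7, with black bars at the list medians. The dashed red line is the median of all 1055 genes of the chromosome, at 0.29, 0.18 and 0.32, and the dotted green line is the median of the uncalled autosomes. Genes of all 6 lists spread around the chromosome's own median, and the lists' medians run from 0.17 to 0.42.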

How the data were processed

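DNA of 11 tumours and matched livers was hybridised to 2-colour Agilent arrays on 3 slides. Per the submitters' processing notes, the tools were Agilent Feature Extraction 10.5.1.1 and Partek, the version of which is not given. The 4 arrays of slide 2 (tumours 4, 7, 9 and 11) were read with version 11.0.1.1, per the file headers. The deposited intensity columns hold background-subtracted, dye-normalized signals of both channels, per the file headers, and mean or median raw signals for the normexp alternative. The deposited LogRatio column is the log10 of red over green. The deposited value table of the authors is log2, equals that column averaged by probe, and was not centred further (medians -0.0490 to 0.0213). No table column lacked a sample.

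The log2 ratio of processed red (tumour) over green (liver) was averaged by probe without outlier spots, and the array median was subtracted. Segments came from exact optimal partitioning (penalty 2 times noise variance times log probe number, at least 5 probes). Tests were exact two-sided sign-flip permutation tests adjusted by Benjamini-Hochberg and, for bins and genes, limma 3.58.1 in R 4.3.3 over all bins or genes. Python 3.11.15, numpy 2.4.6, pandas 2.3.3, scipy 1.17.1, numba 0.67.0 and matplotlib 3.10.9 were used. Segmentation and the limma fits were tested on simulated data. Probe positions are mm9.

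The members and lists were chosen with earlier results of these data known. Named genes are list genes (up to 30, highest and lowest first), the 3 highest and 3 lowest genes and genes at segment ends. Alternatives changed centring, background, dim spots, thresholds, bin size, tumours left out, slide as a random block, the turn of tumour 11 and, chosen after seeing the data, a GC fit. The number of arrays limits the precision.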

Additional observations from a re-analysis of the deposited data

How the results depend on the processing

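The count of 3 gained tumours ranged from 2 to 3 over 25 alternatives, with 2 at a call height of 0.3, at 80% of the chromosome in gain calls and without any 1 of the 3 gained tumours. With the normexp background, 53.3% of chromosome 8 was in gain calls in tumour 2, against 99.7%. Without dim spots the share in tumour 2 was 91.8%, where left-out probes count as not called. The mean and the mean over the uncalled autosomes stayed above 0 and short of the threshold in every test run over 9 to 11 tumours, at 0.031 to 0.074 and 0.024 to 0.069. The mean within slide 3 was -0.0096, and that over the uncalled autosomes -0.016.

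The distal minus proximal difference ranged from -0.025 to 0.00082 with each tumour left out, and turned to 0.00082 without tumour 2 (adjusted p = 0.961). The difference to chromosome 3 ranged from -0.16 to -0.11 with each tumour left out, was -0.13 with medians over probes (adjusted p = 0.0527) and -0.14 without tumours 9 and 11 together (adjusted p = 0.0625), and lost its call in these 2 settings and without 8 of the 11 tumours. The difference to chromosome 15 ranged from -0.11 to -0.060 with each tumour left out and passed only without tumour 7. The causes were not tested beyond the fewer tumours.

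The called bins, 1 as reported, numbered 4 where limma took slides as random blocks, 0 centred on the mode in limma (4 at an unadjusted p under 0.05) and 0 on the uncalled autosomes (12 at an unadjusted p under 0.05), 3 with normexp, 4 with tumour 11 turned, 2 in bins of 0.5 Mb and 0 to 3 with each tumour left out (0 without tumour 2, 3, 7 or 9, and 3 without tumour 4 or 11). The called genes, 6 as reported, numbered 30 with slide as a random block, 1 centred on the mode, 2 centred on the uncalled autosomes, 22 with normexp, 58 with tumour 11 turned, 33 without tumours 9 and 11 together, 30 at 1 probe or more, 2 at 5 probes or more and 1 to 44 with each tumour left out, highest without tumour 11. The cause was not tested. The 2 noisiest arrays and the 1 array per animal limit what can be seen of changes under the height of a call.

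The tests were already paired within animals, since each tumour was read against its own liver on the same array. The tumours form 1 group, so no further pairing was made.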
